A study of Mus musculus with 8 samples.

Results

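Chromatin accessibility was examined at the loci of 6 genes of platelets and megakaryocytes other than Vwf: Itga2b, Itgb3, Selp, Pf4, Ppbp and Cd9. Their accessible regions (peaks) were all those overlapping 1 of 5 fixed windows of the mm9 build, 35 kb around Itga2b, 80 kb around Itgb3, 55 kb around Selp, 25 kb around the neighbouring genes Pf4 and Ppbp, and 50 kb around Cd9. The choice of peaks used their positions and not their signal, although genes and windows were picked with earlier results of these data known. It gave 58 of the 134473 peaks in the table: 7 at Itga2b, 23 at Itgb3, 11 at Selp, 6 at Pf4/Ppbp and 11 at Cd9. No gene annotation of this build was used, so which peaks lie in a promoter, exon, intron or untranslated region was not determined, and a window may reach past its gene.

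The assay was bulk ATAC-seq by the Omni-ATAC procedure, in which a transposase cuts open DNA. The groups were Vwf+Gata1+ and Vwf-Gata1+ MPP2 cells, with 4 libraries of 500 cells in each. Both groups came from bone marrow of C57BL/6 mice aged 8 to 12 weeks. Both were sorted as LSK cells, which lack lineage markers and carry Sca1 and Kit, that were negative for Flt3 and positive for CD150, CD48 and Gata1. By their labels the groups differed in Vwf alone. How Vwf and Gata1 were detected, and whether libraries came from separate animals, is not given in the labels, so the p-values reflect the spread among these libraries, whatever its source. In bulk samples, fewer cells with an open site and less opening per cell cannot be told apart.

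MPP2 cells are multipotent blood progenitors that lean toward megakaryocytes and red cells. Megakaryocytes build platelets and fill them in advance with adhesion receptors and with granules that hold clotting proteins and chemokines, and factors of the GATA, ETS and RUNX families bind near many of these genes. Itga2b and Itgb3 encode the subunits of the platelet fibrinogen receptor, and Itga2b (CD41) also marks early megakaryocyte commitment. Selp encodes P-selectin, an adhesion protein of platelet and endothelial granules. Pf4 and Ppbp encode chemokines of the platelet granules. Cd9 encodes a tetraspanin abundant on platelets and megakaryocytes and also found on many other cells.

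RefSeq promoters in the GRCm38.p6 build, which differs from that of the peaks, were used for 5 of the 6 genes, all but Itgb3. Of these, the 250 bases before the annotated start are shown for Itga2b, since all tested peaks of that locus had estimates on the same side, and for Pf4 and Ppbp, which share the locus with the smallest unadjusted p. Capitals mark AGGAAG (an ETS core, on either strand, so also CTTCCT) and CAGCTG (an E-box, the same on both strands).
Itga2b, chr11:102469884-102470133, minus strand: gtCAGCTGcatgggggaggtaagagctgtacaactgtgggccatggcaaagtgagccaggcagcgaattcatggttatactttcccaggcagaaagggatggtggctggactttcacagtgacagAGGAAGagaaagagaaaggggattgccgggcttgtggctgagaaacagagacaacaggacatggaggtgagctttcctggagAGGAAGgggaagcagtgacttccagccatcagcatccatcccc
Pf4, chr5:90772185-90772434, plus strand: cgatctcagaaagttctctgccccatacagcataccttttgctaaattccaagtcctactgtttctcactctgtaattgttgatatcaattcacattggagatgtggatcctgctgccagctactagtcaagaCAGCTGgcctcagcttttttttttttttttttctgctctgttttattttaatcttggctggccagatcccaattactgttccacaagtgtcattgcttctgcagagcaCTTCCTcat
Ppbp, chr5:90768268-90768517, plus strand: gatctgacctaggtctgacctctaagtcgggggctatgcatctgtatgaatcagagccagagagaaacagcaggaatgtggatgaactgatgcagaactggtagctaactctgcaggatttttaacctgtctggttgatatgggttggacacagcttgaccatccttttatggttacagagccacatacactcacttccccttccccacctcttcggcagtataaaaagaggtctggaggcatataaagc
Each promoter was searched on both strands over 300 bases, up to base 50 after the start, for the letters AGATAA known from GATA sites, AGGAAG known from ETS sites, TGTGGT known from RUNX sites and CAGCTG known from E-boxes, none of which contains another. Counting the base before the start as -1, Itga2b had AGGAAG starting at -125 and -43 and CAGCTG at -248. Pf4 had CTTCCT at -9, CAGCTG at -117 and AGATAA at base 37 after the start, outside the stretch shown. Ppbp held none of the 4. Selp had CTTCCT at -64 and AGGAAG at base 20 after the start, and Cd9 had AGGAAG at -203 and CAGCTG at -25. Of all 32851 RefSeq promoters of this length, 35.4% held the ETS letters, 16.3% the E-box, 16.8% the RUNX letters and 11.2% the GATA letters. These are matches of letters and say nothing of binding, and whether any peak covers these promoters was not determined.

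Every locus carried open chromatin in both groups. Total counts ran from 4628997 to 7753538 per library, and replicate 3 of Vwf+Gata1+ cells was the shallowest. Signal is given as CPM, counts scaled to a common library size, after TMM scaling. After the filter on low counts, 46 of the 58 peaks and 97040 of all peaks entered edgeR's quasi-likelihood test, and p-values were adjusted over all of these by the Benjamini-Hochberg method. The 12 peaks under the filter averaged 0.663 to 1.46 CPM over the 8 libraries. The tested peaks of the loci had a median of 6.99 CPM, against 4.47 CPM over all tested peaks.

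None of the 46 tested peaks passed an adjusted p of 0.05 in either direction in edgeR's test, where 0.0134% of all tested peaks were called higher in Vwf+Gata1+ than in Vwf-Gata1+ cells and 0.00103% were called lower. DESeq2 and limma-voom also called 0 of them. DESeq2 called 0.0137% higher of the 80107 peaks to which it gave an adjusted p, and limma-voom 0.00103% of all tested peaks. Both called 0% lower. The lowest adjusted p at the loci was 0.445. At an unadjusted p under 0.05, edgeR gave 4 of the 46, against 6.72% of all tested peaks. Of the 46, 3 (6.52%) had such a p with a higher estimate and 1 (2.17%) with a lower one. The shares over all tested peaks were 3.52% and 3.2%. DESeq2 and limma-voom each gave 3 of the 46, against 3.47% and 7.49% of all tested peaks. Groups did not overlap at 1 peak with higher and 1 with lower signal in Vwf+Gata1+ cells, against 1.81% and 2.07% of all tested peaks, 3.88% in all. The log2 fold changes (Vwf+Gata1+ minus Vwf-Gata1+) ran from -0.57 to 0.63 with a median of 0.02, against a median of 0.0039 over all tested peaks. The estimate was above 0 at 25 of the 46 peaks, against 50.7% of all tested peaks. For 43 of the 46, the 95% interval lay within 2-fold either way, against 85.6% of all tested peaks. Larger differences at those 43 peaks are outside the intervals. The median standard error was 0.20 at the loci, against 0.23 over all tested peaks.

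**Figure D1:**
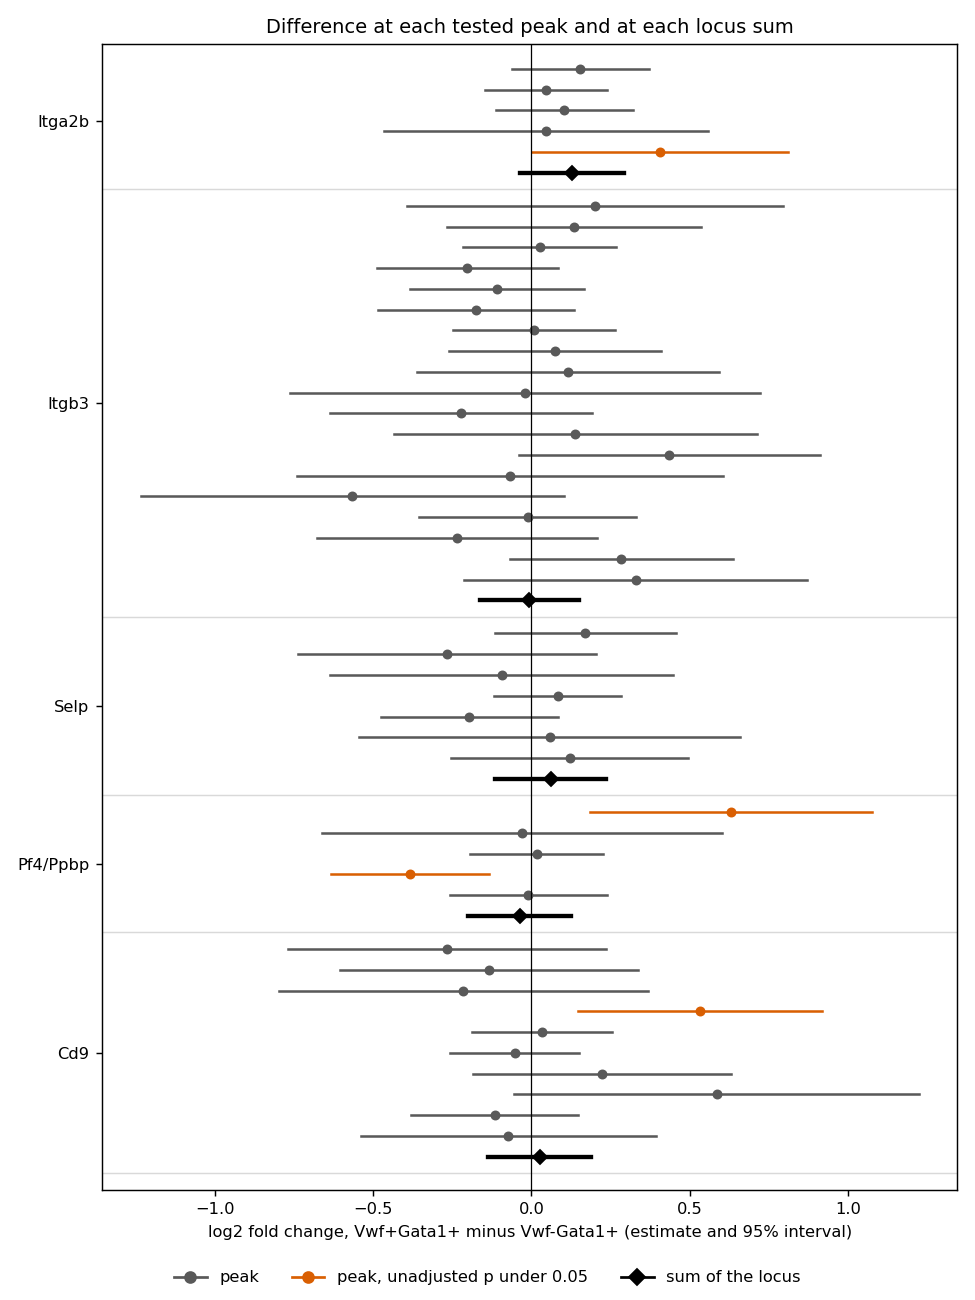
Log2 fold change of each of the 46 tested peaks (circles, in order along each window) and of the summed counts of each locus (diamonds), Vwf+Gata1+ minus Vwf-Gata1+, with 95% intervals not adjusted for the number of tests. The 5 sums lie between -0.037 and 0.13, and the 4 peaks in orange have an unadjusted p under 0.05 in edgeR's test, of which none passed adjustment.

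All peaks of a locus were also summed per library and each sum tested in place of its peaks among all tested peaks. None of the 5 sums passed, where 0.0134% of all rows in that fit were called higher and 0.00103% lower, and none had an unadjusted p under 0.05 in edgeR's test. DESeq2 and limma-voom also called 0 sums. Of all rows in those fits, DESeq2 called 0.0137% higher of the 80073 with an adjusted p, and limma-voom 0.00103%. Each called 0% of them lower. The groups overlapped at each locus. The 95% intervals of the fold ran from 0.975 to 1.23 at Itga2b, 0.894 to 1.11 at Itgb3, 0.924 to 1.18 at Selp, 0.871 to 1.09 at Pf4/Ppbp and 0.91 to 1.14 at Cd9. A difference in summed signal of over 1.25-fold therefore lay outside the interval at every locus.

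**Figure D2:**
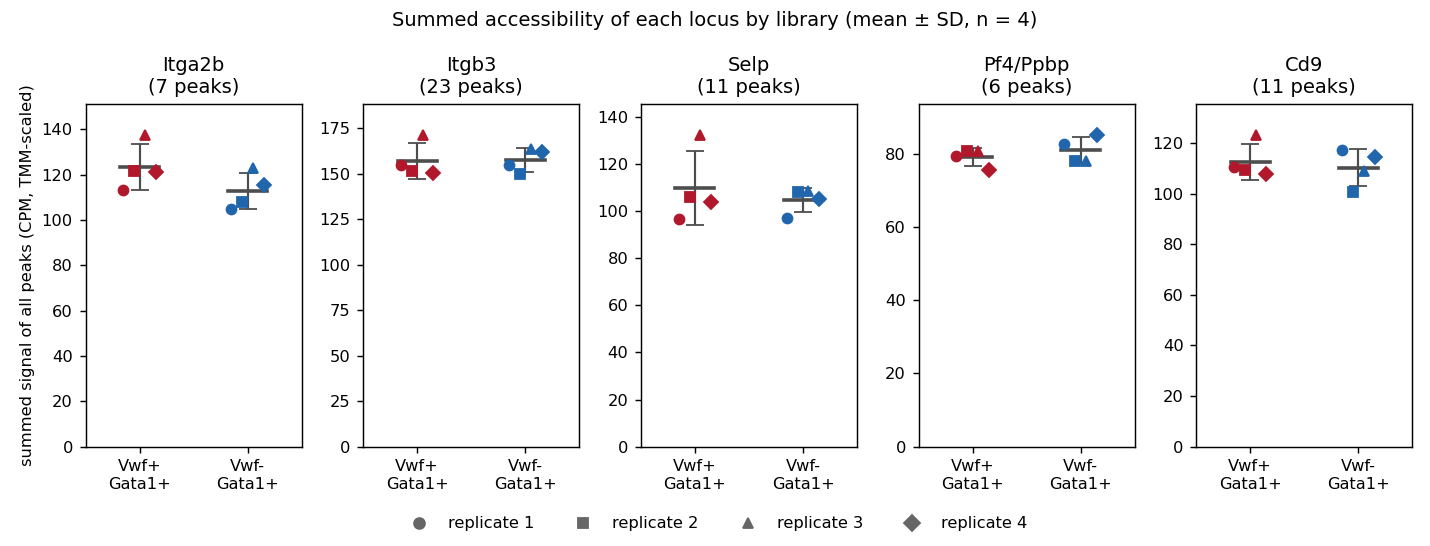
Summed signal of all peaks of each locus in CPM, with a point for each library (shapes are replicate numbers), bars for the mean and whiskers for the SD of 4 libraries. The groups overlap in every panel, and replicate 3 of Vwf+Gata1+ cells is the highest library at Itga2b, Itgb3, Selp and Cd9.

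The highest Vwf+Gata1+ library at those 4 loci was also the shallowest of the 8. Replicate 3 was the shallowest Vwf-Gata1+ library too, and the highest of that group at Itga2b, Itgb3 and Selp but not at Pf4/Ppbp or Cd9. The part of depth in these sums was not tested. At Itga2b, the gene of the integrin alpha-IIb subunit, signal sat in 3 strong peaks that held 89.1% of the counts. The sum was 113, 122, 138 and 121 CPM in Vwf+Gata1+ replicates 1 to 4, against 105, 108, 123 and 116 CPM in Vwf-Gata1+ replicates 1 to 4. Most Vwf+Gata1+ libraries lay above most Vwf-Gata1+ libraries, with overlap. The means were 123 ± 10.1 CPM and 113 ± 8.08 CPM (SD, n = 4 each), and the log2 fold change came to 0.13 ± 0.082 (SE; edgeR adjusted p = 0.825). Replicate 3 of Vwf+Gata1+ cells was the highest, and without it the log2 fold change was 0.075. Dropping each library in turn gave values from 0.075 to 0.17, and none changed sign. The largest came from dropping Vwf-Gata1+ replicate 3. With the window widened by 25 kb on each side the log2 fold change was 0.043.

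The strongest Itga2b peak, chr11:102328221-102329002, had 37.5, 42.0, 42.2 and 40.8 CPM in Vwf+Gata1+ replicates 1 to 4, against 33.5, 39.4, 42.7 and 42.0 CPM in Vwf-Gata1+ replicates 1 to 4. These ranges nearly coincide, and the log2 fold change was 0.046 ± 0.095 (SE; edgeR adjusted p = 0.968). Its mean signal was above that of 94.4% of tested peaks. The next, chr11:102330940-102331874, had 33.8, 37.7, 49.3 and 33.8 CPM in the Vwf+Gata1+ libraries, against 32.4, 33.7, 40.4 and 36.2 CPM in the Vwf-Gata1+ libraries. Replicate 3 was the highest library of each group there, and without that of Vwf+Gata1+ cells the log2 fold change of 0.10 became -0.020. At chr11:102316954-102317845 signal was 29.5, 28.7, 28.2 and 31.2 CPM in the Vwf+Gata1+ libraries, against 28.6, 21.4, 30.4 and 25.8 CPM in the Vwf-Gata1+ libraries. Here the Vwf-Gata1+ libraries spread over a wider range that took in most of the others.

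The Itga2b peak with the lowest p was weaker, at chr11:102340060-102340929, with 5.93, 6.38, 10.3 and 9.2 CPM in the Vwf+Gata1+ libraries, against 6.01, 6.77, 4.49 and 6.13 CPM in the Vwf-Gata1+ libraries. Replicates 3 and 4 of Vwf+Gata1+ cells stood above all Vwf-Gata1+ libraries, and replicates 1 and 2 lay among them. The log2 fold change came to 0.41 ± 0.20 (SE; edgeR unadjusted p = 0.0491, adjusted p = 0.742). All 5 tested Itga2b peaks had estimates above 0, from 0.046 to 0.41, although the 2 strongest had estimates below 0 when 1 library was left out (-0.028 without replicate 1 of Vwf-Gata1+ cells at the strongest). The peak not yet named, chr11:102336391-102336685, averaged 3.28 CPM over the Vwf+Gata1+ libraries and 3.22 CPM over the Vwf-Gata1+ libraries. A nearby peak under the filter, chr11:102343210-102343450, had 9 to 15 counts per library in Vwf+Gata1+ cells and 4 to 8 in Vwf-Gata1+ cells, or 2.01 ± 0.527 CPM and 0.852 ± 0.293 CPM (SD, n = 4 each). Its groups did not overlap, but narrowly: the nearest libraries had 1.29 CPM (Vwf+Gata1+ replicate 4) and 1.23 CPM (Vwf-Gata1+ replicate 2). How often groups lay apart among peaks under the filter was not determined. This peak is named after its values were seen. With no filter on low counts, its log2 fold change came to 1.21 ± 0.39 (SE; edgeR unadjusted p = 0.00392, adjusted p = 0.495). In that fit 6 of all 58 peaks of the loci had an unadjusted p under 0.05, against 6.38% of all peaks. A Selp peak under the filter, chr1:166089794-166090124, had a like estimate there with overlapping groups (1.21 ± 0.50, SE; edgeR unadjusted p = 0.0199, adjusted p = 0.698).

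**Figure D3:**
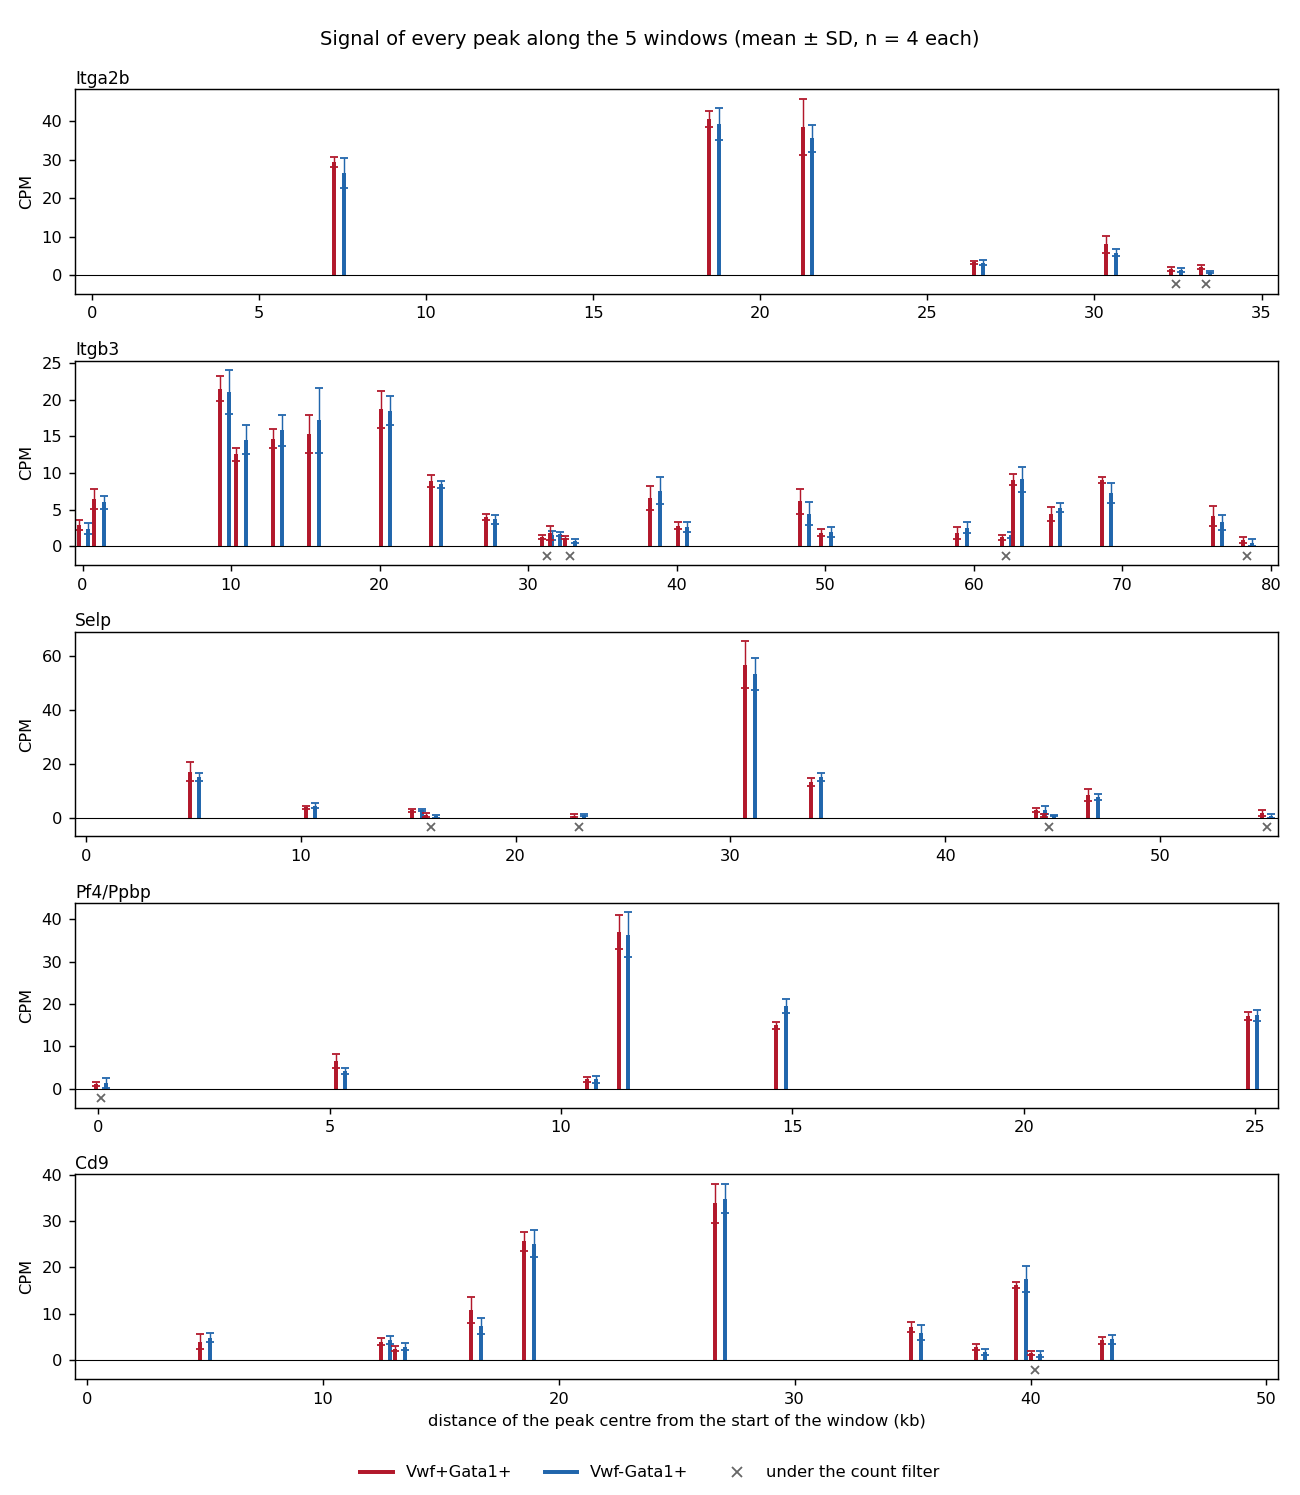
Mean signal in CPM of every peak by its distance from the start of the window, for Vwf+Gata1+ (red, left of each pair) and Vwf-Gata1+ cells (blue), with whiskers for the SD of 4 libraries and crosses for peaks under the count filter. No pair differed past the adjusted threshold, and the 3 strongest peaks held 89.1% of the counts at Itga2b and 35.5% at Itgb3.

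At Itgb3, the gene of the partner beta-3 subunit, signal was spread over many peaks, 5 of which averaged 10 CPM or more. The 3 strongest held 35.5% of the counts. The sum was 155, 152, 171 and 150.2 CPM in Vwf+Gata1+ replicates 1 to 4, against 155, 149.8, 164 and 162 CPM in Vwf-Gata1+ replicates 1 to 4. The means were 157 ± 9.8 CPM and 158 ± 6.51 CPM (SD, n = 4 each), and the log2 fold change came to -0.0059 ± 0.077 (SE; edgeR adjusted p = 0.995). Leaving out any 1 of 5 libraries turned its sign, and over all 8 such fits it ran from -0.048 to 0.015.

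The strongest Itgb3 peak, chr11:104468903-104470211, had 22.8, 19.9, 23.1 and 20.1 CPM in the Vwf+Gata1+ libraries, against 22.3, 16.6, 22.6 and 22.8 CPM in the Vwf-Gata1+ libraries. One low library, replicate 2, set the lower end of the Vwf-Gata1+ range, and the log2 fold change was 0.026 ± 0.12 (SE; edgeR adjusted p = 0.987). At chr11:104479979-104480819 signal was 15.4, 18.2, 21.5 and 19.6 CPM in the Vwf+Gata1+ libraries, against 17.9, 18.1, 21.3 and 16.6 CPM in the Vwf-Gata1+ libraries. The log2 fold change was 0.0083 ± 0.13 (SE), and both groups covered the same range.

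The largest positive Itgb3 estimate was at chr11:104508069-104509120, with 8.3, 5.25, 6.42 and 4.46 CPM in the Vwf+Gata1+ libraries, against 6.8, 3.38, 3.51 and 4.09 CPM in the Vwf-Gata1+ libraries. Replicate 1 was the highest library of each group, and the log2 fold change was 0.44 ± 0.24 (SE; edgeR adjusted p = 0.773). The largest negative one was at the weak peak chr11:104519067-104519341, with 1.45, 1.31, 2.98 and 1.44 CPM in the Vwf+Gata1+ libraries, against 3.53, 1.85, 2.15 and 2.48 CPM in the Vwf-Gata1+ libraries. Replicate 3 alone of the Vwf+Gata1+ libraries lay inside the Vwf-Gata1+ range, and the log2 fold change was -0.57 ± 0.33 (SE; edgeR adjusted p = 0.8). At chr11:104528612-104529263 the groups did not overlap, with 8.56, 9.01, 9.63 and 9.06 CPM in the Vwf+Gata1+ libraries, against 8.49, 6.77, 5.66 and 8.32 CPM in the Vwf-Gata1+ libraries. The gap between the nearest libraries was narrow, and the log2 fold change was 0.28 ± 0.17 (SE; edgeR adjusted p = 0.813). The other 15 tested Itgb3 peaks, the last among them, had log2 fold changes from -0.23 to 0.33 and averaged 1.72 to 16.2 CPM. Over all 19 tested Itgb3 peaks, 10 estimates were above 0 and 9 below, with a median of 0.0083.

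At Selp, the gene of P-selectin, 1 peak held 51.1% of the counts. This peak, chr1:166065313-166066497, was the strongest of all the loci, above 97.3% of tested peaks. It had 49.5, 55.4, 69.2 and 52.9 CPM in Vwf+Gata1+ replicates 1 to 4, against 45.2, 58.9, 55.4 and 53.6 CPM in Vwf-Gata1+ replicates 1 to 4. Only replicate 3 of Vwf+Gata1+ cells lay above the Vwf-Gata1+ range. The log2 fold change came to 0.083 ± 0.099 (SE; edgeR adjusted p = 0.931), or -0.017 without that library. The next peak along, chr1:166068730-166069241, had a negative estimate, with 14.0, 14.8, 11.9 and 11.9 CPM in the Vwf+Gata1+ libraries, against 14.2, 16.5, 16.6 and 13.4 CPM in the Vwf-Gata1+ libraries. The groups overlapped, and the log2 fold change came to -0.20 ± 0.14 (SE; edgeR adjusted p = 0.846). At chr1:166039627-166040508 signal was 13.3, 15.6, 21.8 and 17.97 CPM in the Vwf+Gata1+ libraries, against 13.6, 14.8, 14.6 and 17.1 CPM in the Vwf-Gata1+ libraries, with replicate 3 of Vwf+Gata1+ cells again the highest. The other 4 tested Selp peaks had log2 fold changes from -0.27 to 0.12 and averaged 2.9 to 8.07 CPM.

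The Selp sum was 96.7, 106, 132 and 104 CPM in the Vwf+Gata1+ libraries, against 97.2, 108, 109 and 105 CPM in the Vwf-Gata1+ libraries. Apart from 1 high Vwf+Gata1+ library, the groups covered the same range. The means were 109.8 ± 15.7 CPM and 105 ± 5.29 CPM (SD, n = 4 each), and the log2 fold change came to 0.061 ± 0.087 (SE; edgeR adjusted p = 0.947). Without replicate 3 of Vwf+Gata1+ cells it was -0.035.

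At the shared locus of Pf4 and Ppbp, the genes of platelet factor 4 and of the precursor of platelet basic protein, 3 peaks held 89.0% of the counts. RefSeq places Ppbp between Cxcl5 and Pf4, and Pf4 between Ppbp and Cxcl3, further chemokine genes. The strongest peak, chr5:91200839-91201868, held 45.7% and had 39.4, 35.1, 41.3 and 32.2 CPM in Vwf+Gata1+ replicates 1 to 4, against 37.8, 29.7, 35.7 and 42.3 CPM in Vwf-Gata1+ replicates 1 to 4. The groups overlapped widely, and the log2 fold change came to 0.016 ± 0.10 (SE; edgeR adjusted p = 0.991). At chr5:91214550-91215333, at the far edge of the window, signal was 17.5, 17.8, 15.8 and 17.5 CPM in the Vwf+Gata1+ libraries, against 16.3, 19.2, 17.2 and 16.8 CPM in the Vwf-Gata1+ libraries. The estimate there was -0.0100 ± 0.12 (SE).

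A peak on each side of the strongest one had the smallest unadjusted p of this locus, with estimates of opposite sign. At chr5:91204331-91205179 signal was 14.9, 16.0, 13.8 and 15.2 CPM in the Vwf+Gata1+ libraries, against 20.3, 20.9, 19.9 and 17.2 CPM in the Vwf-Gata1+ libraries. Every Vwf+Gata1+ library lay below every Vwf-Gata1+ library. The means were 14.96 ± 0.918 CPM and 19.6 ± 1.62 CPM (SD, n = 4 each), and the log2 fold change came to -0.38 ± 0.12 (SE; edgeR unadjusted p = 0.0037, adjusted p = 0.445). At chr5:91194915-91195563 signal was 4.48, 8.26, 7.33 and 6.33 CPM in the Vwf+Gata1+ libraries, against 3.92, 5.07, 3.51 and 4.09 CPM in the Vwf-Gata1+ libraries. Replicates 2, 3 and 4 of Vwf+Gata1+ cells stood above all Vwf-Gata1+ libraries, while replicate 1 lay among them. The means were 6.6 ± 1.62 CPM and 4.15 ± 0.663 CPM, and the log2 fold change came to 0.63 ± 0.22 (SE; edgeR unadjusted p = 0.00675, adjusted p = 0.512). Neither passed the adjusted threshold. The remaining tested peak, chr5:91200541-91200786, averaged 2.21 CPM over the Vwf+Gata1+ libraries and 2.22 CPM over the Vwf-Gata1+ libraries.

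The Pf4/Ppbp sum was 79.5, 80.7, 80.7 and 75.6 CPM in the Vwf+Gata1+ libraries, against 82.7, 78.1, 78.2 and 85.2 CPM in the Vwf-Gata1+ libraries. The groups overlapped, with means of 79.1 ± 2.4 CPM and 81.1 ± 3.51 CPM (SD, n = 4 each). The log2 fold change came to -0.037 ± 0.080 (SE; edgeR adjusted p = 0.97), and -0.11 with the window widened by 25 kb on each side.

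**Figure D4:**
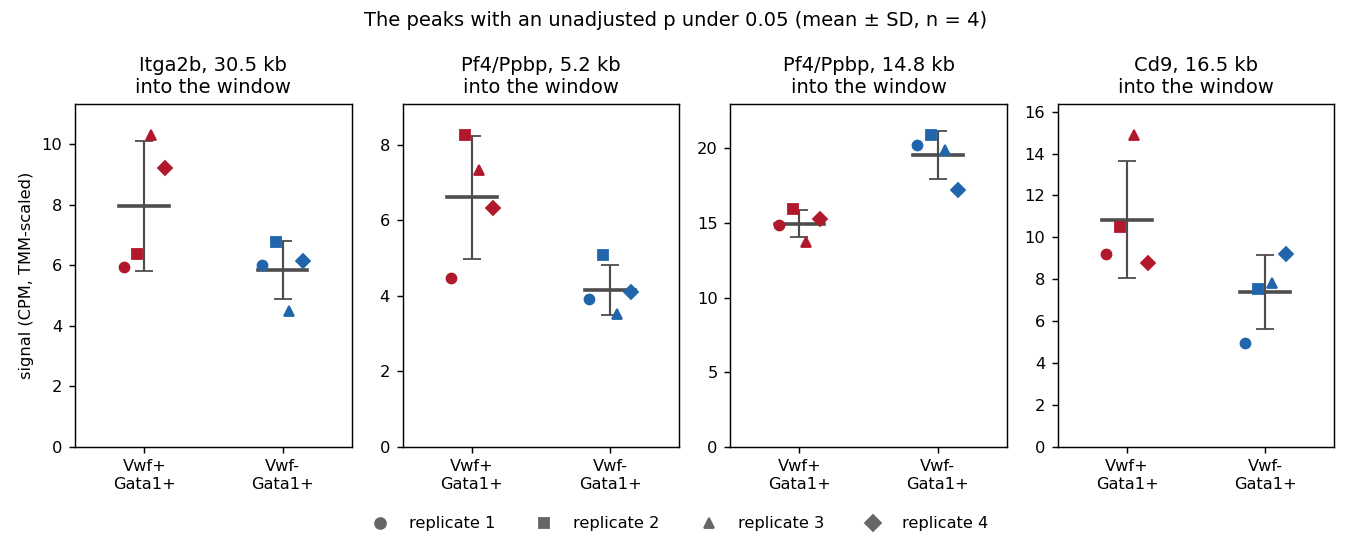
Signal in CPM by library at the 4 peaks of the loci with an unadjusted p under 0.05 in edgeR's test, with bars for the mean and whiskers for the SD of 4 libraries. The groups are apart only at the Pf4/Ppbp peak 14.8 kb into the window, where Vwf+Gata1+ libraries are lower, and no peak passed adjustment.

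At Cd9, the tetraspanin gene, the 3 strongest peaks held 68.8% of the counts. The widest peak of the loci, chr6:125430975-125432702 with 1728 bp, had 34.4, 31.9, 39.4 and 29.6 CPM in Vwf+Gata1+ replicates 1 to 4, against 38.4, 31.1, 35.7 and 34.2 CPM in Vwf-Gata1+ replicates 1 to 4. Both groups covered the same range, and the log2 fold change came to -0.053 ± 0.10 (SE; edgeR adjusted p = 0.967). At chr6:125423258-125424225 signal was 24.5, 24.2, 25.2 and 28.6 CPM in the Vwf+Gata1+ libraries, against 26.1, 20.8, 26.5 and 27.0 CPM in the Vwf-Gata1+ libraries. The estimate was 0.034 ± 0.11 (SE).

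A weaker neighbour, chr6:125421276-125421708, had the lowest p of the Cd9 locus. Its signal was 9.22, 10.5, 14.9 and 8.77 CPM in the Vwf+Gata1+ libraries, against 4.97, 7.53, 7.8 and 9.19 CPM in the Vwf-Gata1+ libraries. Replicates 1, 2 and 3 of Vwf+Gata1+ cells lay above all Vwf-Gata1+ libraries, and replicate 4 fell inside their range. The means were 10.8 ± 2.8 CPM and 7.37 ± 1.76 CPM (SD, n = 4 each), and the log2 fold change came to 0.53 ± 0.19 (SE; edgeR unadjusted p = 0.0079, adjusted p = 0.528). The small peak chr6:125442772-125443006 had 3.03, 2.63, 3.44 and 2.01 CPM in the Vwf+Gata1+ libraries, against 2.61, 1.85, 0.975 and 1.61 CPM in the Vwf-Gata1+ libraries, with overlap. Its counts were 5 to 23 per library, and the log2 fold change of 0.58 had an SE of 0.32. The other 6 tested Cd9 peaks had log2 fold changes from -0.27 to 0.22 and averaged 2.68 to 16.9 CPM.

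The Cd9 sum was 110.5, 109, 123 and 108 CPM in the Vwf+Gata1+ libraries, against 117, 100.9, 109 and 114 CPM in the Vwf-Gata1+ libraries. The groups overlapped, with means of 113 ± 7.18 CPM and 110.4 ± 7.26 CPM (SD, n = 4 each). The log2 fold change came to 0.026 ± 0.080 (SE; edgeR adjusted p = 0.982). It was -0.017 with replicate 3 of Vwf+Gata1+ cells left out, and -0.015 with replicate 2 of Vwf-Gata1+ cells left out.

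In RefSeq the next protein-coding gene on the start side of Cd9 is Vwf, the gene of the sort. In the 200 kb after the Cd9 window, 29 peaks were tested, of which 18 had estimates above 0 and 5 an unadjusted p under 0.05 in edgeR's test, all 5 with higher signal in Vwf+Gata1+ cells. Over all tested peaks, 50.7% had estimates above 0, 6.72% an unadjusted p under 0.05 and 3.52% such a p with a higher estimate. None passed adjustment (lowest edgeR adjusted p = 0.113). Inside the Cd9 window, 4 of 10 tested peaks had estimates above 0 and 1 an unadjusted p under 0.05. The difference between the window and its flank was not tested. This flank lies outside the 5 windows, and none of its peaks was assigned to Vwf or to another gene.

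Per kb of peak, signal differed more between loci than between the groups. In Vwf+Gata1+ cells it was 29.3 ± 2.4 CPM per kb at Itga2b, 21.1 ± 0.638 at Pf4/Ppbp, 18.1 ± 2.58 at Selp, 16.8 ± 1.07 at Cd9 and 12.9 ± 0.808 at Itgb3 (SD, n = 4). In Vwf-Gata1+ cells it was 26.7 ± 1.92, 21.6 ± 0.935, 17.3 ± 0.871, 16.5 ± 1.08 and 13.0 ± 0.537 CPM per kb in the same order of loci (SD, n = 4). In both groups the Itga2b libraries lay above all Pf4/Ppbp libraries, and the Itgb3 libraries below all Cd9 libraries. Selp and Cd9 overlapped in both groups. Selp reached into the Pf4/Ppbp range in Vwf+Gata1+ cells, through replicate 3, and not in Vwf-Gata1+ cells. The order depends on the measure. Per kb of window, the mean over the 8 libraries was 3.37 CPM at Itga2b and 3.20 at Pf4/Ppbp. It was 2.23 at Cd9, 1.97 at Itgb3 and 1.95 at Selp.

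Across the 8 libraries, the summed signals of Itga2b and Selp had the highest correlation of any pair of loci (Pearson r = 0.807), and those of Itga2b and Pf4/Ppbp the lowest (r = -0.166). These values describe 8 libraries that share their scaling and depth. Among 44554 tested peaks elsewhere that averaged 5 CPM or more, the most like Itga2b was chr10:77727346-77728115 (r = 0.99), and 508 had an r over 0.9. The most like the others were chr7:73984260-73985647 for Itgb3 (r = 0.986), chr9:110342344-110343523 for Selp (r = 0.987), chr17:31324228-31324815 for Pf4/Ppbp (r = 0.975) and chr9:63563852-63564481 for Cd9 (r = 0.98). An r over 0.9 was reached by 143 peaks for Itgb3, 211 for Selp, 28 for Pf4/Ppbp and 112 for Cd9. With 44554 candidates and only 8 libraries, values this high can arise between peaks that have no relation. How many would do so was not tested, so these matches are description only.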

How the data were processed

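The authors deposited 1 table of raw counts per peak for 8 ATAC-seq libraries, with peak positions as row names. Build mm9 is named in the submitters' processing notes, along with the tools MACS2, Picard, SAMtools, Bowtie2, FastQC and Trim Galore, in no stated order. Their roles and versions, the treatment of duplicates, any shift of read ends and the merging of peaks are not given in the sources used here. Unshifted read ends would lie a few bases off, little beside peaks of 200 bp or more. Starts were read as 1-based.

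Groups came from the cell type in the labels and replicate numbers from the titles. No pair of replicates agreed within sampling noise (chi-square per degree of freedom 1.29 to 1.94), so all 8 libraries were kept. Peaks passing filterByExpr (minimum count 10, minimum total 15) were scaled by TMM and tested without covariates by edgeR's quasi-likelihood test (robust fit) at a Benjamini-Hochberg adjusted p of 0.05 over all tested peaks. For locus sums, all peaks of a locus, low ones included, were added per library. A standard error is the absolute log2 fold change divided by the root of F. Given library by library are, per locus, the 2 peaks with the highest mean CPM and the 2 with the lowest p. Added to these was any tested peak whose groups did not overlap. Other megakaryocyte genes were not analysed here, since no gene positions of this build were used. The cell type was not checked against marker genes for the same reason. The members, windows and rules were chosen with earlier results of these data known. Alternatives were a replicate block, RLE and total count scaling, no filter, DESeq2, limma-voom with quality weights, libraries left out, wider windows and sums over filtered peaks. Software was edgeR 4.0.16, DESeq2 1.42.0 and limma 3.58.1 in R 4.3.3, with figures by matplotlib 3.10.9 in Python 3.11.15.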

Additional observations from a re-analysis of the deposited data

Results flagged for a closer look

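In 8 of 102 groups of 4 libraries examined (each tested peak and each locus sum, by group), 1 library stood apart from the others by Dixon's test at 95%, and chance flags about 1 in 20. In Vwf+Gata1+ cells, replicate 4 was low at the Itgb3 peak chr11:104483429-104484163 (7.62 CPM, others 9.17 to 9.38 CPM). Replicate 3 was high at the Itgb3 peak chr11:104519067-104519341 (2.98 CPM, others 1.31 to 1.45 CPM) and at the Selp peak chr1:166049999-166050808 (3.67 CPM, others 2.5 to 2.63 CPM). It was low at the Pf4/Ppbp peak chr5:91214550-91215333 (15.8 CPM, others 17.5 to 17.8 CPM). Replicate 2 was low at the Itgb3 peak chr11:104525221-104525805 (3.0 CPM, others 4.74 to 5.04 CPM). In Vwf-Gata1+ cells, replicate 2 was low at the Itgb3 peak chr11:104468903-104470211 (16.6 CPM, others 22.3 to 22.8 CPM) and at the Cd9 peak chr6:125423258-125424225 (20.8 CPM, others 26.1 to 27.0 CPM). Replicate 3 was high at the Itgb3 peak chr11:104491611-104492037 (2.15 CPM, others 1.54 to 1.61 CPM). None of the locus sums was flagged.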

How the results depend on the processing

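No fit called a peak of the 5 loci or a locus sum, in 15 other fits, with windows widened by 25 kb or with only filtered peaks summed. The count over all tested peaks, 13 higher and 1 lower, did move, and the cause was not tested: total count scaling gave 21 and 6, DESeq2 11 and 0 (3372 at an unadjusted p under 0.05), limma-voom 1 and 0 (7273), and leaving out replicate 1 of both groups 32 and 3. Leaving out 1 library gave 3 to 66 higher and 0 to 10 lower. The higher count moved by over 1.5 times whichever library was dropped, except Vwf-Gata1+ replicate 4 (9), and was highest with Vwf+Gata1+ replicate 1 dropped (66 and 10) or Vwf-Gata1+ replicate 3 dropped (51 and 4). With the replicate number as a block it was 375 and 136, and the lowest adjusted p of a peak at the loci was 0.113 (edgeR). The labels do not tie same-numbered libraries together. Correlations of their deviations from group means were 0.301, 0.163, 0.074 and 0.0103, and 5 of 8 libraries were most like their own number. Whether the numbers are pairs cannot be settled from these values. The main fit, with its standard errors and intervals, took no account of them.

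The signs of the sums and of 20 single peaks were followed across the fits. The 4 peaks with an unadjusted p under 0.05 in edgeR's main fit kept theirs in 15 other fits, and none was called. Their log2 fold changes ran from -0.44 to -0.35 at chr5:91204331-91205179, 0.50 to 0.80 at chr5:91194915-91195563, 0.37 to 0.67 at chr6:125421276-125421708 and 0.28 to 0.55 at chr11:102340060-102340929. These 4 were picked by that p in the same data. The Itga2b and Pf4/Ppbp sums also kept their sign. The sums and peaks named next changed sign in at least 1 fit. The Itgb3 sum was 0.0036 without the filter and 0.0015 with wider windows. Peak chr11:104479979-104480819 was -0.012 with total count scaling. Peak chr5:91200839-91201868 was -0.0040 with total count scaling, -0.012 with limma-voom and -0.0056 without replicate 1 of both groups. With 1 library left out, the sums ran from -0.048 to 0.015 at Itgb3, -0.035 to 0.12 at Selp and -0.017 to 0.059 at Cd9. Single peaks ran from -0.017 to 0.15 at chr1:166065313-166066497, -0.028 to 0.086 at chr11:102328221-102329002, -0.020 to 0.16 at chr11:102330940-102331874, -0.073 to 0.064 at chr11:104468903-104470211, -0.056 to 0.10 at chr11:104479979-104480819, -0.070 to 0.10 at chr5:91200839-91201868, -0.039 to 0.042 at chr5:91214550-91215333, -0.048 to 0.069 at chr6:125423258-125424225 and -0.12 to 0.0087 at chr6:125430975-125432702. Standard errors of tested peaks of the loci had a median of 0.20, against 0.077 to 0.087 for locus sums.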
